A study of Mus musculus with 8 samples.

Results

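The genes described here are 10 members of the mouse PRAME family that carry the names Pramel or Pramef: Pramel4, Pramel5, Pramel6, Pramel7, Pramef6, Pramef8, Pramef12, Pramef17, Pramef20 and Pramef25. They were taken by symbol, by matching the Ensembl identifier of each row of the count table to the GENCODE M21 annotation of mm10. No cutoff on a measured value was applied, but the members were named with earlier results of these data known. A row was found for 9 of the 10 among the 36920 rows of the table, and Pramel4 was not analysed here for want of a matching row. Of the 9, 8 passed the filter on low counts and were tested among 19173 genes, while Pramef20, with 2 reads over all libraries, was not.

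RNA was sequenced from 8 libraries of R1, a mouse embryonic stem (ES) cell line grown in serum with LIF, in 4 groups of 2 named D1, D3, D8 and D10. The labels describe a pair of 48 h exposures to ML-792, which blocks the E1 enzyme that starts the attachment of the small protein SUMO to other proteins, one from D1 to D3 and one from D8 to D10, at a dose written as 2.5 mM. The start of each exposure (D1, D8) carries the label control and its end (D3, D10) the label ML-792; no untreated library of D3 or D10 was used here, so exposure and 48 h more in culture cannot be told apart. D1 replicate 2 carries D1 in its title and day 0 in its time tag, and whether replicates came from separate cultures is not stated, so a p-value here reflects only the spread between these samples, which may be technical.

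PRAME proteins are built of leucine-rich repeats, and human PRAME, the founder of the family and a cancer-testis antigen, acts as a substrate receptor of the CUL2 ubiquitin ligase. In the mouse the family has expanded into tandem arrays, and most members are known from the germline, the oocyte or the early embryo. Pramel7 is known from the inner cell mass, as a LIF and STAT3 target and as a protein that brings UHRF1, the partner of the maintenance methyltransferase DNMT1, to degradation through CUL2; Pramef12 is known from spermatogonial stem cells.

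Of the 9 rows, 7 lay on chromosome 4, within 996 kb, and 2 on chromosome 2. In genome order on chromosome 4 (mm10) they were Pramef8 (ENSMUSG00000046862, chr4:143412426-143421091, plus strand), Pramef6 (ENSMUSG00000078512, chr4:143894237-143900380, minus), Pramef25 (ENSMUSG00000078511, chr4:143948580-143951016, minus), Pramef17 (ENSMUSG00000078509, chr4:143991119-143994369, minus), Pramel5 (ENSMUSG00000036749, chr4:144270633-144280488, minus), Pramef20 (ENSMUSG00000073721, chr4:144372760-144377933, minus) and Pramef12 (ENSMUSG00000028591, chr4:144391674-144408464, minus). Pramel7 (ENSMUSG00000025839, chr2:87489087-87497093, minus) and Pramel6 (ENSMUSG00000025838, chr2:87506565-87510872, plus) lay side by side on chromosome 2. RefSeq calls Pramef6, Pramef8, Pramef12, Pramef17, Pramef20 and Pramef25 Pramel11, Pramel12, Pramel13, Pramel14, Pramel15 and Pramel16.

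Some members are nearly the same sequence as another gene, which bears on how far a row's reads can be assigned to it. Short stretches of coding sequence are shown because they set copies that a read within the stretch cannot separate beside members that it can. The first set gives the last 60 coding bases before the stop codon, 5′ to 3′, from GENCODE M21 on mm10, with capitals where a gene differs from Pramef25. BC080695 and Gm13119 did not differ from Pramef25 at any of these bases, and Pramef8 differed at 15.
Pramef25: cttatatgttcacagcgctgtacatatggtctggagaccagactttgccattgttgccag
BC080695: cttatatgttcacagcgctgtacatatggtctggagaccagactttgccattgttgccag
Gm13119: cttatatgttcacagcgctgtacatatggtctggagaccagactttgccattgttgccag
Pramef8: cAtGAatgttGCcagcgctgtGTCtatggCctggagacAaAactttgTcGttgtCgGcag

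The second set gives the first 60 coding bases, with capitals where a gene differs from Pramef6. Gm13078 and Pramel5 were the same as Pramef6 over this stretch, and Pramef12 differed at 16 bases.
Pramef6: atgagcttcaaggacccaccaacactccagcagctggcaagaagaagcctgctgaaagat
Gm13078: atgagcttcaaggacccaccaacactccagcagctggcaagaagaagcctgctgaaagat
Pramel5: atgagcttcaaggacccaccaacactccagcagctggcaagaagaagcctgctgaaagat
Pramef12: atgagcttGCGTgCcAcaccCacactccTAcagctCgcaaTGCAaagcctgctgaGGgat

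Pramef17 and Gm13128, another row of the cluster, differed at 1 of their first 60 coding bases, in capitals.
Pramef17: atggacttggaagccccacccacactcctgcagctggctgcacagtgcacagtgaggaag
Gm13128: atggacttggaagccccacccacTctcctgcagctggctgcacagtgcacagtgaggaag

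Over the whole aligned coding sequence, the 45 pairs of the 10 members ranged from 59.05% identity to 93.65% (Pramel4 with Pramel5), with a median of 63.3%. The closest relatives of several members lay outside the 10. Pramef6 was 97.19% identical to Gm13083 and 95.71% to Gm13078, Pramef25 was 96.95% identical to BC080695 and 96.88% to Gm13119, and Pramef17 was 99.3% identical to Gm13128. Each of these relatives lay in the same cluster of chromosome 4 as its member. Place did not follow sequence in every case: Pramel7 on chromosome 2 was 80.87% identical to Pramef17 on chromosome 4 and 60.68% to Pramel6 beside it.

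To see which rows could hold reads from a copy, every 50-base window of each member's transcripts was looked up in the transcripts of all other annotated genes. No window of Pramef8, Pramef12, Pramef20 or Pramel6 occurred elsewhere, and 1.43% of those of Pramel7 did. The share was 25.9% for Pramel5, whose leading match was Pramel4, 33.7% for Pramef6 (Gm13083), 63.5% for Pramef25 (Gm13057), 73.5% for Pramef17 (Gm13128) and 87.4% for Pramel4 (Gm13102). How the counting treated reads that match several genes is not given in the sources used here, so the values of Pramef25, Pramef17, Pramef6 and Pramel5 may in part be those of a copy, and those of Pramef8, Pramef12, Pramel6 and Pramel7 are less open to this.

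**Figure D1:**
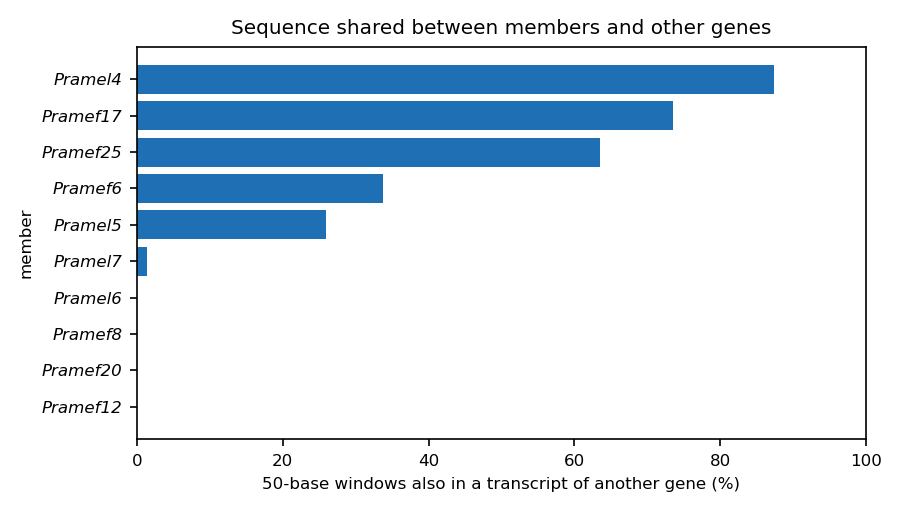
The bars give the percentage of each member's 50-base transcript windows that also occur in an annotated transcript of another gene. Pramef12, Pramef20, Pramef8 and Pramel6 stand at 0, and Pramef17 and Pramel4 at 73.5% and 87.4%.

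Total reads in genes ran from 21040992 to 40835518 per library, so that 3 reads, taken as the floor of detection, were worth 0.0713 to 0.143 CPM (the usual unit of relative abundance, a row's reads scaled to the TMM-adjusted library total). The libraries carried the markers of the labelled cell type: the 8 ES cell markers, Pou5f1, Sox2 and Nanog among them, summed to 4930 to 5340 CPM at D1, 4090 to 4130 at D3, 4880 to 4960 at D8 and 3120 to 3460 at D10, and 5 of the 8 were lower at D10 than at D8 at an adjusted p under 0.05 (Benjamini-Hochberg over all genes tested), the threshold at which a gene is called here. The 9 fibroblast markers summed to 6.07 to 7.18 CPM at D1, 7.35 to 10.1 at D3, 7.79 to 13.1 at D8 and 4.98 to 10.4 at D10. Of these, Col3a1, Col6a1, Dcn, Lum, Postn and Twist2 stayed under 1 CPM in every library, while Thy1 reached 7.14 CPM, Col1a2 4.02 and Col1a1 2.42. Of the 4 fibroblast markers tested, 1 was called higher in the first exposure, Twist2 (at most 0.421 CPM), and 0 in the second. The 8 primitive endoderm markers, Lama1 the most abundant, summed to 124 to 171 CPM at D1, 119 to 165 at D3, 514 to 747 at D8 and 417 to 605 at D10; Gata6 and Pdgfra were called higher in the first exposure and Dab2 lower in the second. The 7 trophoblast markers, of which 6 were tested and 0 called in either exposure, summed to 50.3 to 51.4 CPM at D1, 35.7 to 36.7 at D3, 79.1 to 181 at D8 and 41.7 to 105 at D10, with Elf5, Hand1 and Gata3 under 1 CPM in every library. Of 10 germ cell markers, Nanos2, Gdf9 and Figla stayed under 1 CPM. The germ cell list summed to 216 to 230 CPM at D1, 220 to 278 at D3, 126 to 176 at D8 and 183 to 188 at D10, with 1 of its 8 tested genes called higher in each exposure and 0 lower. The part of these 4 lists in the results was not tested, and in bulk RNA a change in the number of cells that express a gene cannot be told apart from a change in the RNA per cell.

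Pramef12 and Pramef8 made up most of the members' RNA. Per kilobase of exon, Pramef12 stood at 23.3 ± 7.6 CPM at D1 (SD, n = 2 libraries, as for all levels here), above 86.9% of the genes tested, and Pramef8 at 4.14 ± 0.185, above 57.4%. Pramef25 followed at 1.23 ± 0.0227, above 38.4%. The other rows were close to the floor at D1, with 15 reads or fewer per gene and library for Pramel5, Pramel6, Pramel7, Pramef6, Pramef17 and Pramef20.

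At D3 the order changed: Pramef8 stood at 15.5 ± 0.487 CPM per kilobase, above 81.2% of genes, Pramef25 at 13.3 ± 6.49, above 78.6%, and Pramef12 at 11.3 ± 0.72, above 75.8%. The SD of Pramef25 covers both neighbours. At D8 Pramef12 led again (22.6 ± 2.57), ahead of Pramef8 (5.51 ± 1.57) and Pramef25 (0.202 ± 0.093), and by D10 the means were 14.3 ± 2.7 for Pramef8, 10.5 ± 4.71 for Pramef12 and 5.32 ± 1.84 for Pramef25. The SDs of Pramef8 and Pramef12 overlap at D10, those at D8 do not.

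**Figure D2:**
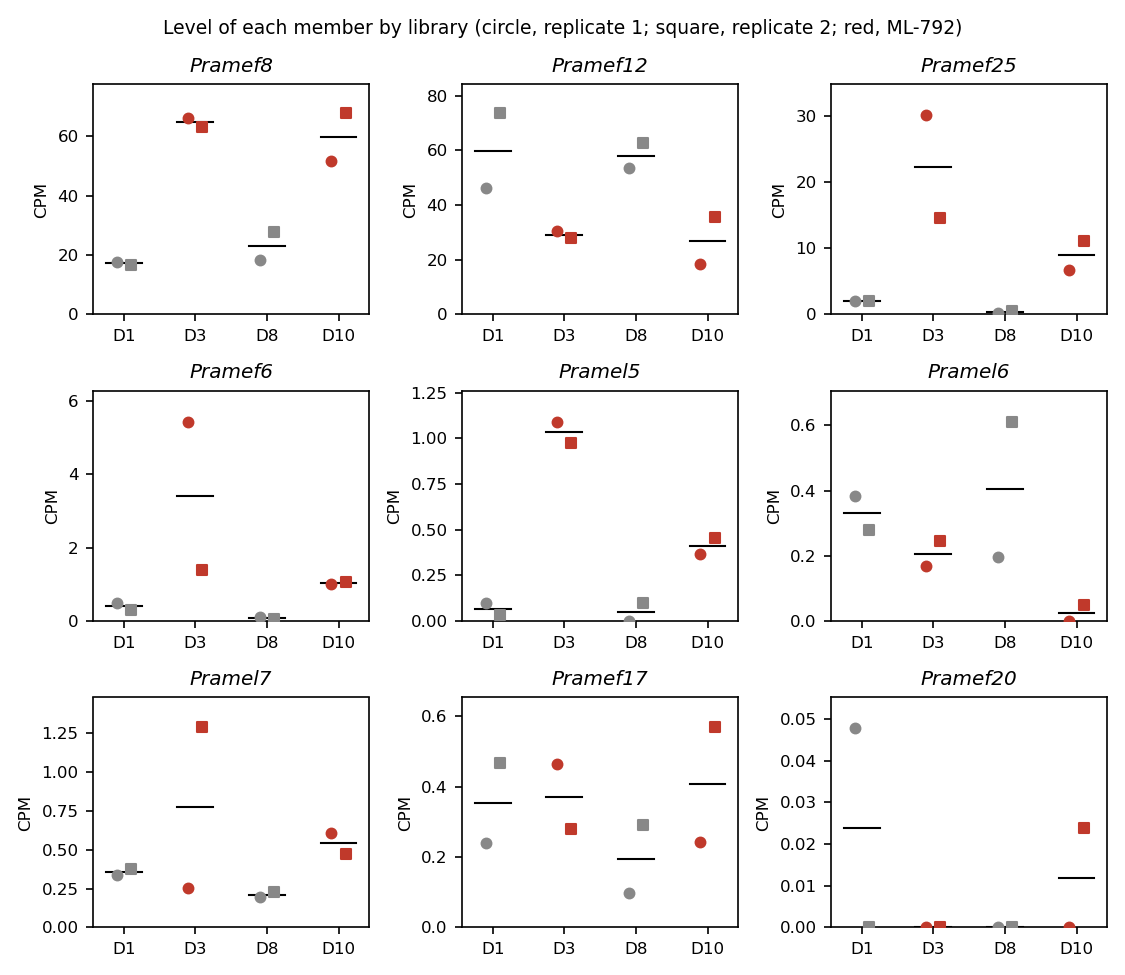
Each panel plots CPM (vertical axis, from 0, own scale) of 1 member in the 4 groups, with circles for replicate 1, squares for replicate 2, a line at the mean and red for ML-792 libraries. Pramef8 and Pramef25 lie higher in all 4 red libraries than in any grey one, Pramef12 lies lower, and Pramef20 does not exceed 1 read in any library.

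Pramef8 rose in both exposures, and its row shares no 50-base window with another gene. The D1 libraries held 17.8 and 16.7 CPM and the D3 libraries 66.1 and 63.2, while the D8 libraries held 18.4 and 27.6 and the D10 libraries 51.8 and 67.8. All 4 ML-792 libraries lay above all 4 controls. The change was 1.9 ± 0.22 on the log2 scale from D1 to D3 (SE, edgeR quasi-likelihood test, adjusted p = 0.0025) and 1.38 ± 0.21 from D8 to D10 (adjusted p = 0.0047), or 3.74-fold and 2.6-fold. Both calls held when any 1 of the 8 libraries was left out.

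Pramef25 also rose in both exposures. It went from 2.1 and 2.05 CPM in the D1 libraries to 30.1 and 14.6 in those of D3, and from 0.229 and 0.45 in those of D8 to 6.77 and 11.1 in those of D10. The ML-792 libraries again lay above every control library, by 3.42 ± 0.43 on the log2 scale in the first exposure (10.7-fold, adjusted p = 0.0031) and 4.71 ± 0.5 in the second (26.1-fold, adjusted p = 0.0013), and both calls held without any 1 library. Since 63.5% of its windows occur in other genes, this row may carry reads of BC080695 and Gm13119. It may also carry reads of its leading match Gm13057, whose level was not examined here. BC080695 and Gm13119 were called higher too, by 2.96 and 2.83 in the first exposure and 5.12 and 3.81 in the second. Their first calls depended on single libraries, with changes of 2.35 to 3.37 and of 2.23 to 3.24 as each library was left out.

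Pramef6 rose from 0.478 and 0.311 CPM at D1 to 5.43 and 1.39 at D3, and from 0.0981 and 0.0644 at D8 to 1.01 and 1.07 at D10. The groups did not overlap in either exposure. The D8 values rest on 3 and 2 reads, at or below the 3-read floor (0.0981 and 0.0965 CPM), against 25 and 45 reads at D10, 10 and 10 at D1 and 129 and 40 at D3. The log2 change was 3.13 ± 0.65 (adjusted p = 0.018) and 3.62 ± 0.83 (adjusted p = 0.02). Without D3 replicate 1 the first fell to 1.83 with an adjusted p of 0.11, and the call was also lost without D1 replicate 1 (0.081) or D1 replicate 2 (0.14); the second was lost without D8 replicate 2 (0.096), D10 replicate 1 (0.054) or D10 replicate 2 (0.058).

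Pramel5 was rare throughout: the D1 libraries had 2 and 1 reads and the D3 libraries 26 and 28, and the D8 libraries had 0 and 3 and the D10 libraries 9 and 19. Read against library size, 54 reads against 3 gave a D3 to D1 ratio of 18.2, with a 95% exact interval of 5.91 to 91.1, and 28 against 3 gave a D10 to D8 ratio of 8.62 (2.66 to 44.3). These intervals allow for counting error alone, and the reads carry no molecular identifiers, so they are not independent molecules. The edgeR test called both (4.07 ± 0.79, adjusted p = 0.013; 2.98 ± 0.84, adjusted p = 0.042). The first call was lost without D1 replicate 1, D1 replicate 2 or D3 replicate 1 (adjusted p = 0.062, 0.13 and 0.072) and the second without any 1 library but D8 replicate 2 (0.061 to 0.13). DESeq2 called the first (4.15, adjusted p = 0.005) and not the second (3.1, adjusted p = 0.052).

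Pramef12 was lower in the ML-792 libraries. Its level was 46.1 and 73.7 CPM in the D1 libraries against 30.5 and 27.9 in the D3 libraries, and 53.4 and 62.7 in the D8 libraries against 18.4 and 35.6 in the D10 libraries. Every ML-792 library lay below every control library. From D8 to D10 it fell by 1.1 ± 0.31 on the log2 scale (adjusted p = 0.043), a call lost without D3 replicate 1 or 2 (0.068 each), D8 replicate 2 (0.11) or D10 replicate 1 (0.18, at a log2 change of -0.7). From D1 to D3 the change was -1.04 ± 0.31 with an adjusted p of 0.06, which passed the threshold with DESeq2 (0.012), with no filter on low counts (4.9e-06) and in 3 of the 8 fits that leave out a library. The small value from the unfiltered edgeR fit is not particular to Pramef12. In the same comparison that fit gave adjusted p of 2.3e-17 for Pramef8 (0.0025 with the filter) and 2.2e-23 for Pramef25 (0.0031). Pramef12os, an antisense gene that lies within the span of Pramef12, held 0 to 8 reads per library, against 454 to 2374 in the Pramef12 row.

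Pramel6, known with Pramel7 from the early embryo, had 8 and 9 reads in the D1 libraries and 4 and 7 in those of D3, then 6 and 19 in those of D8 and 0 and 2 in those of D10. The D10 libraries were the lowest of the 8. The D8 to D10 ratio, 25 reads against 2, was 13.5 with a counting interval of 3.38 to 118.0; the edgeR change was -3.6 ± 0.95 (adjusted p = 0.033), a call that held in 1 of the 8 fits that leave out a library and not with DESeq2 (0.054). From D1 to D3 its change was -0.63 ± 0.75 (adjusted p = 0.64).

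Pramel7, the member best known from ES cells, passed the test in neither exposure. The D1 libraries had 0.335 and 0.373 CPM of it and the D3 libraries 0.253 and 1.29; the D8 libraries had 0.196 and 0.225 and the D10 libraries 0.608 and 0.475. The D3 libraries lay on either side of D1, while both D10 libraries lay above both D8 libraries. The log2 changes were 1.13 ± 0.68 (adjusted p = 0.32) and 1.33 ± 0.73 (adjusted p = 0.25), and without D3 replicate 2, which held 37 reads against 6 in replicate 1, the first was -0.5.

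Pramef17 was near the floor, at 3 to 24 reads per library, with overlapping groups and log2 changes of 0.01 ± 0.71 and 1.11 ± 0.69 (adjusted p = 1.0 and 0.31). Pramef20 had 1 read in D1 replicate 1 and 1 in D10 replicate 2, and 0 in the other 6 libraries, which allows up to 0.0932 to 0.126 CPM per library by the 3-read floor.

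Counted together, 4 of the 8 tested members were called higher from D1 to D3 and 0 lower, where 7.92% of all genes tested were called higher and 5.1% lower. From D8 to D10, 4 were called higher and 2 lower, against 9.27% and 7.65% of all genes; in either direction this was 4 of 8 against 13% and 6 of 8 against 16.9%. The 4 called higher were Pramef8, Pramef25, Pramef6 and Pramel5 in both. Pramel5 and Pramef6 passed the filter on low counts only because of their ML-792 libraries, and Pramel6 only because of its control libraries. The rows of Pramef25, Pramef6 and Pramel5 may also share reads with copies. These counts therefore describe the rows and are no test of the family. The median log2 change of the 8 was 1.52 and 1.35, against 0.0 and 0.03 over all genes. In the first exposure both end libraries lay above both start libraries for 4 members and below them for 2, as they did for 32.8% and 32% of all genes; in the second this held for 5 and 2 members, against 27.2% and 27.6%. Without D10 replicate 1 the second exposure gave 2 calls, and without D3 replicate 1, D3 replicate 2, D8 replicate 2 or D10 replicate 2 it gave 3. Without D1 replicate 1, D1 replicate 2 or D3 replicate 1 the first gave 2. Pramef8 and Pramef25 were among the calls each time. DESeq2 called 5 members in the first exposure, 4 higher and 1 lower, and 4 in the second, 3 higher and 1 lower.

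**Figure D3:**
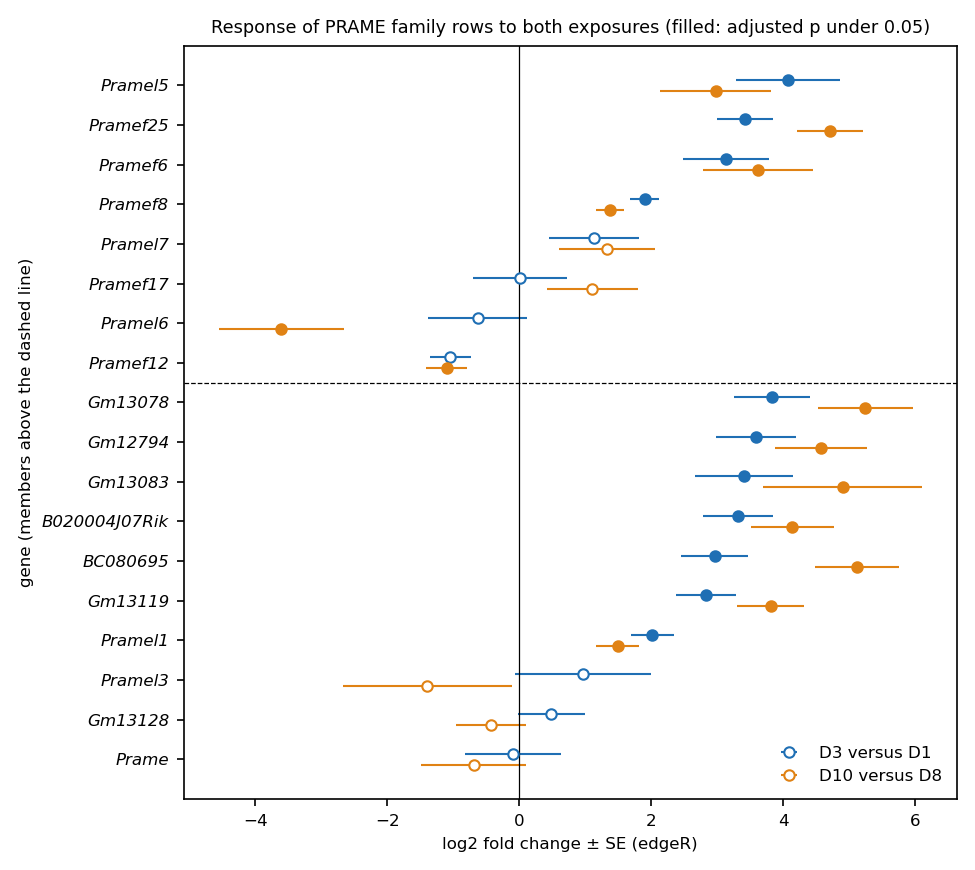
Points give the log2 fold change (edgeR, horizontal axis) and bars its SE for the 8 tested members, above the dashed line, and the 10 tested relatives, for D3 versus D1 in blue and D10 versus D8 in orange; filled points passed an adjusted p of 0.05. Pramel5, Pramef25, Pramef6 and Pramef8 are filled and to the right of 0 in both, and Pramef12 lies to the left at -1.04 and -1.1.

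The change altered which gene supplied most of the members' reads. Pramef12 took 68.2% and 78.5% of the reads of the 9 rows in the D1 libraries and 73.6% and 68.1% in those of D8, but 22.7% and 25.4% in those of D3 and 23.2% and 30.4% in those of D10. The share of Pramef8 was 17.8% to 30.0% in the 4 control libraries and 49.3% to 65.4% in the 4 ML-792 libraries. Per kilobase, Pramef12 exceeded Pramef8 by 3.68 to 7.15 times in the 4 control libraries and stood at 0.577 to 0.852 of it in the 4 ML-792 libraries. These 2 rows share no 50-base window with any other gene. Summed over the 6 Pramef rows, with no test, the level was 80.06 ± 18.7 CPM at D1, 119.9 ± 17.8 at D3, 81.65 ± 13.4 at D8 and 97.17 ± 26.8 at D10.

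**Figure D4:**
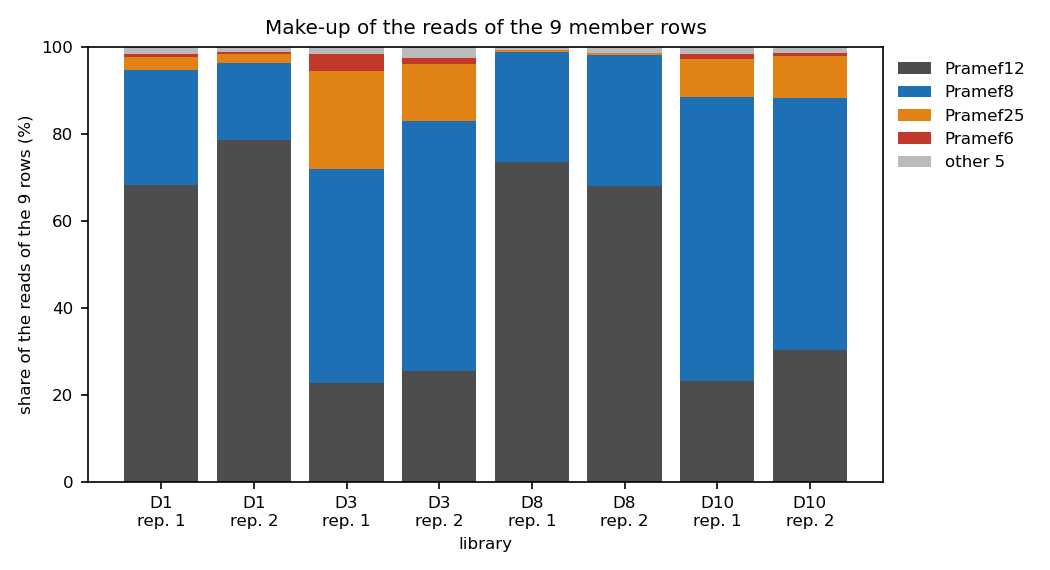
Stacked bars divide the reads of the 9 member rows (vertical axis, percent) in each library by gene. The Pramef12 part is 68.1% to 78.5% in the D1 and D8 libraries and 22.7% to 30.4% in the D3 and D10 libraries.

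At D8, 5 days after the first exposure ended, the members that had risen were low again. From D3 to D8 the test called 4 of 8 lower, against 11.2% of all genes, and 0 higher, against 11.3%. These were Pramef8 (-1.49 ± 0.21, adjusted p = 0.0024), Pramef25 (-6.02 ± 0.51, adjusted p = 0.00053), Pramef6 (-5.31 ± 0.79, adjusted p = 0.0028) and Pramel5 (-4.29 ± 0.78, adjusted p = 0.0062). The D8 libraries held 5 reads of Pramef6 in all, so the size of its fitted change rests on values at the floor. For Pramel5, with 3 reads at D8, the D3 to D8 ratio was 21.1 with a 95% counting interval of 6.86 to 106.0. Pramef12 differed by 0.99 ± 0.31 (adjusted p = 0.05, unrounded just above the threshold, so not called). DESeq2 called it (0.97, adjusted p = 0.013), as did edgeR with no filter on low counts (5.8e-06) and in 5 of the 8 fits without a library (0.015 to 0.049), but not without D3 replicate 1 (0.17), D3 replicate 2 (0.2) or D8 replicate 2 (0.14). The limit of the unfiltered fit given above for Pramef12 holds here too. Each comparison shares libraries with others: D3, for example, enters this one and that with D1.

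Against D1, 0 of 8 members were called at D8 by edgeR, where 0.177% of all genes were called (0.141% higher, 0.0365% lower); 2 had an unadjusted p under 0.05. These were Pramef25, which stood below both D1 libraries at D8 with a log2 difference of -2.59 ± 0.52 (adjusted p = 0.13), and Pramef6, at -2.19 ± 0.93 (adjusted p = 0.4). DESeq2, which gave an adjusted p to 4 of the 8, called 1, Pramef25 (-2.62, adjusted p = 7.8e-05). Pramef8 differed by 0.41 ± 0.21 (adjusted p = 0.47) and Pramef12 by -0.05 ± 0.31 (adjusted p = 0.96). Both D8 libraries lay above both D1 libraries for 1 member and below them for 3, as for 21.6% and 20.3% of all genes.

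Between the ends of the second and the first exposure edgeR called 0 of 8 members and 0 of all 19173 genes (0%), and DESeq2 called 0 of the 4 members to which it gave an adjusted p. With edgeR, 4 members had an unadjusted p under 0.05, and in these both D10 libraries lay below both D3 libraries, with log2 differences of -1.31 ± 0.38 for Pramef25, -1.7 ± 0.57 for Pramef6, -1.31 ± 0.57 for Pramel5 and -2.66 ± 1.05 for Pramel6. Pramef8, at -0.11 ± 0.21, and Pramef12, at -0.11 ± 0.31, overlapped. Over all genes the groups were apart in this way for 16.7%, and for 17.9% in the other direction, which no member showed. A change in response from one exposure to the next was called for 0 of 8 members and 0 of all genes by edgeR; Pramel6 (-2.97 ± 1.26) had an unadjusted p under 0.05, and the other values ran from -1.09 ± 1.41 for Pramel5 to 1.28 ± 0.65 for Pramef25.

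The 4 members that rose differed in how alike the D3 libraries were. The ratio of D3 replicate 1 to replicate 2 was 1.05 for Pramef8 and 1.12 for Pramel5, but 2.06 for Pramef25 and 3.9 for Pramef6. Over 22 tested genes known from cells that resemble the 2-cell embryo, such as the Zscan4 cluster and Duxf3, the ratio had a median of 2.6 and ran from 0.903 to 3.78, above 1 for 21 of 22. The part of this library difference in the values of Pramef25 and Pramef6 was not tested, but both D3 libraries exceeded both D1 libraries for each.

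Further family genes were taken by name, as those whose GENCODE M21 or RefSeq symbol begins with Prame or Oog. Genes with other names that share windows with members, such as Gm13057 and Gm13102, were left out. By this rule the annotation holds 42 further genes, of which 26 had a row and 10 were tested. Of these, 7 were called higher and 0 lower in each exposure: Gm13078 (3.83 ± 0.57 and 5.24 ± 0.72 on the log2 scale), Gm12794 (3.59 ± 0.61 and 4.57 ± 0.7), Gm13083, B020004J07Rik, BC080695, Gm13119 and Pramel1. Among all genes tested 7.92% were called higher and 5.1% lower in the first exposure, and 9.27% and 7.65% in the second. Gm13083 passed the filter on low counts only because of its ML-792 libraries. The first set of calls rests on single libraries: without D1 replicate 2, 0 of the 7 passed (adjusted p = 0.066 to 0.16), without D1 replicate 1, 3 did and without D3 replicate 1, 4 did, and the log2 change of Gm12794 ranged from 2.26 to 4.24 as each library was left out. In the second exposure 5 of the 7 held without any 1 library; Gm13083 was lost without D8 replicate 1, D8 replicate 2 or D10 replicate 2 (0.071, 0.073 and 0.11) and Pramel1 without D8 replicate 2 (0.051) or D10 replicate 2 (0.087). DESeq2 called the 7 in both. The share of 50-base windows found in other genes was 55.3% for BC080695, 47.3% for Gm12794 and 38.6% for Gm13119. It was 25.9% for Gm13083, 14.8% for Gm13078, 13.4% for B020004J07Rik and 0.0% for Pramel1. The leading match of Gm13083 and of Gm13078 was Pramef6. Several of the 7 rows may thus in part hold reads of a copy, members included. Gm13128, the near copy of Pramef17, had log2 differences of 0.49 ± 0.51 and -0.43 ± 0.53, and Prame, the mouse gene named for the founder, of -0.09 and -0.69; neither was called. The summed level of the 26 rows was 16.34 ± 1.5 CPM at D1, 130.2 ± 80.4 at D3, 5.599 ± 2.27 at D8 and 53.17 ± 12.6 at D10.

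Along chromosome 4, rows that rose and rows that did not stood next to each other. Pramef17, the next row after Pramef25, was not called. Gm13119, which rose in both exposures, lay between Gm13128 and the Pramef20 and Pramef12 pair. Pramef8 and its neighbour Pramel1, 18.0 kb away at the other end, had like values: 1.9 and 2.02 in the first exposure and 1.38 and 1.49 in the second.

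**Figure D5:**
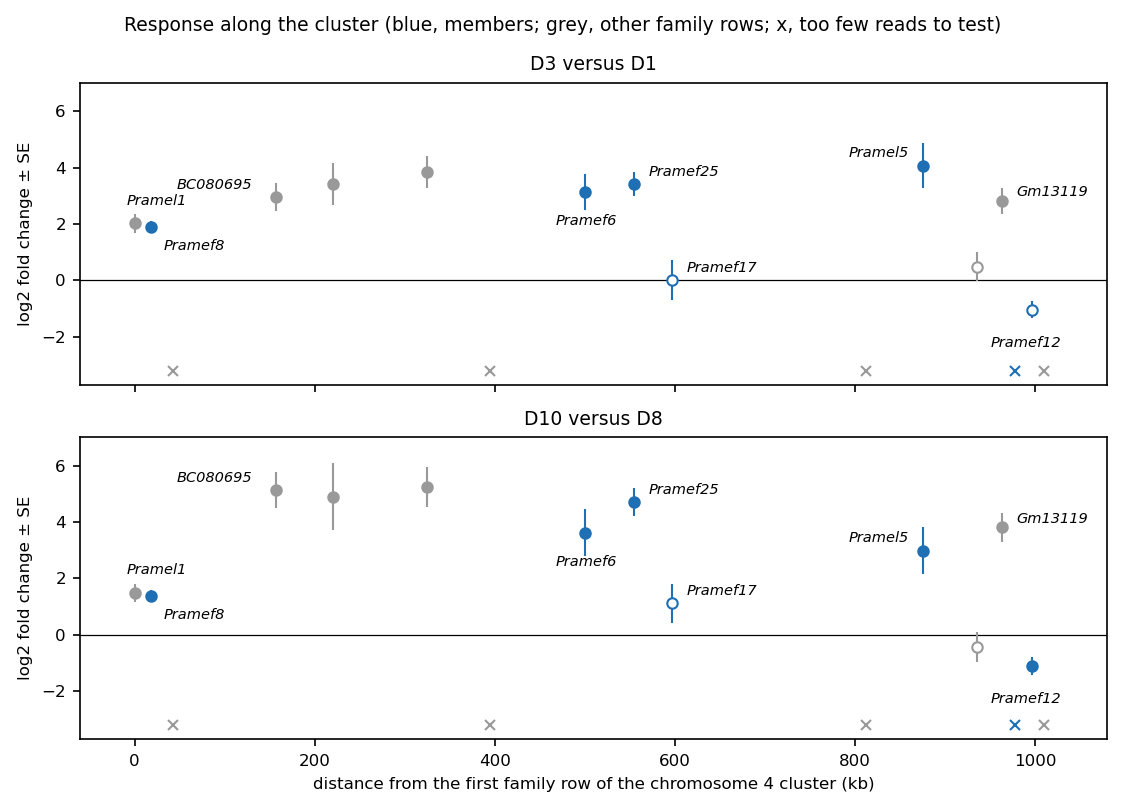
The log2 fold change with its SE (vertical axis) is plotted against distance in kb from the first family row of the chromosome 4 cluster, with members in blue, other family rows in grey, filled points for adjusted p under 0.05 and crosses at the foot for rows with too few reads to test. Open points (Pramef17, Gm13128) stand among filled ones, and Pramef12 is the lowest point in both panels.

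The upstream sequences of 3 members are shown because they set Pramef12, lower in the ML-792 libraries, beside 2 members that rose. Each is the 250 bases before the RefSeq start of transcription on GRCm38.p6, read 5′ to 3′ on the gene's own minus strand, with capitals at CpG dinucleotides. They cover chr4:144408465-144408714 for Pramef12, chr4:143951017-143951266 for Pramef25 and chr4:143900381-143900630 for Pramef6.
Pramef12: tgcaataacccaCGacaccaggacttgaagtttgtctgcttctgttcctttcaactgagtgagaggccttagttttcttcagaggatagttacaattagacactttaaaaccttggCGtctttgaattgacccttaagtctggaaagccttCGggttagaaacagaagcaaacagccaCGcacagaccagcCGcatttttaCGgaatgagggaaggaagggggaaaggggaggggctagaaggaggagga
Pramef25: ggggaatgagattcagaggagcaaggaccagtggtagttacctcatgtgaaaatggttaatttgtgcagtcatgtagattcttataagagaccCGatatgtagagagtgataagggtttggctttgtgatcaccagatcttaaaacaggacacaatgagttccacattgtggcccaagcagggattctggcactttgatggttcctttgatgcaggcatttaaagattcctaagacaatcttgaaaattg
Pramef6: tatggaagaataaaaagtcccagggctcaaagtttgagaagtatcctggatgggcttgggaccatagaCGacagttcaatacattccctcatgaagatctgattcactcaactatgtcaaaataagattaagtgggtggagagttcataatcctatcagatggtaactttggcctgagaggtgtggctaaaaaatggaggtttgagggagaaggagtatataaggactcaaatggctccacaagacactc

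Pramef12 held 6 CpG dinucleotides in this window, the median over 32851 mouse promoters, whereas Pramef25 and Pramef6 held 1 each and the 8 members other than Pramef12 with a RefSeq promoter 0 to 2. A window with 2 or fewer is found at 29.03% of all promoters. Pramel6, called lower in the second exposure on few reads (25 at D8 and 2 at D10), held 2. Among the other family rows called higher in both exposures, Pramel1 held 18 and the rest 0 to 2. The RefSeq start lay 15767 bases from the GENCODE start for BC080695 and 4675 for Pramel7. Their windows may thus not be those of the counted transcript. A link between CpG number and response was not tested. The published Dux motif and the motifs TGCACAC (Zscan4) and TTCNNNGAA (STAT) were searched on both strands of the 300 bases around the start; none is in the windows of the 9 members or of the 43 family promoters searched, against 0.207%, 4.40% and 8.30% of all promoters. Pramef8 was not among the promoters searched.

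Genes outside the family were searched, but those with predicted-gene names (Gm with a number, or ending in Rik) were left out. A closer gene with such a name would not appear here. Among the 12752 genes searched, those likest a member over the 8 libraries had the smallest root mean square difference of centred log2 CPM. They were Plxdc2 (0.135), Zfp618 (0.156) and Dusp2 (0.173) for Pramef8; Erbb3 (0.154), Dio3 (0.167) and Scarf1 (0.172) for Pramef12; Cpb2 (0.244), Arg2 (0.284) and Chrm3 (0.286) for Pramef25; and Ubtfl1 (0.175), Cntnap3 (0.303) and Tdpoz3 (0.313) for Pramef6. The libraries share treatment and depth, so this is a description of likeness in these samples.

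Genes tied to PRAME proteins by function, regulation or stage were taken as 3 lists. The lists were drawn up with earlier results of these data known, so their counts are no independent test. Of all genes tested, 7.92% were called higher and 5.1% lower in the first exposure, and 9.27% and 7.65% in the second. Of 16 tested genes of the CUL2 ligase and of DNA methylation, 2 were called higher and 0 lower in each exposure: Dnmt3a, a de novo methyltransferase (1.56 ± 0.14 and 2.12 ± 0.14), and Uhrf2 (0.65 ± 0.14 and 0.48 ± 0.13). Cul2 (-0.08 ± 0.13 and 0.34 ± 0.13), Uhrf1 (-0.21 ± 0.15 and -0.4 ± 0.15) and Dnmt1 (-0.04 ± 0.13 and -0.15 ± 0.13) were not called. The list medians were -0.03 and 0.0.

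The LIF and STAT3 list holds the pathway and its targets. Of its 13 genes, 6 were called lower in each exposure and 1 higher in the first, Lif itself (0.92 ± 0.25). The lower genes included Tfcp2l1 (-1.26 and -2.27), Gbx2 (-1.34 and -0.77) and Klf4 (-0.72 and -1.38). Lifr (-0.63 and -0.72), Il6st (-0.12 and -0.2), Jak1 (-0.42 and -0.3) and Stat3 (-0.19 and -0.37) were called in neither exposure. Of 22 tested genes known from 2-cell-like cells, 21 were called higher in each exposure, against 7.92% and 9.27% of all genes tested. The choice of this list with earlier results known limits what that count can show. Its medians were 3.61 and 4.68. Zscan4c changed by 4.55 ± 0.53 and 5.78 ± 0.57, Duxf3 by 3.8 ± 0.49 and 4.82 ± 0.58, and Zfp352 by 2.24 ± 0.48 and 4.05 ± 0.58. Beside these medians stand 3.42 and 4.71 for Pramef25, 3.13 and 3.62 for Pramef6, and 1.9 and 1.38 for Pramef8.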

How the data were processed

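RNA was sequenced from 8 libraries, 2 in each of D1, D3, D8 and D10. The authors deposited raw read counts, 1 row per Ensembl gene and not normalized. Per the submitters' processing notes the tools were bcl2fastq 2.17.1.14, STAR 2.5.0a and featureCounts, with the build mm10; annotation release, strandedness and handling of multi-mapping reads: not given in the sources used here. The labels name polyA RNA, while the extraction text describes a stranded kit for total RNA with ribosomal RNA removed.

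Symbols came from GENCODE M21. Genes were kept by filterByExpr, leaving 19173, and fitted with edgeR 4.0.16 (quasi-likelihood, TMM scaling, R 4.3.3) as 4 groups in 1 fit. There were 4 residual degrees of freedom, and the biological coefficient of variation was 19.6%. Tests were 2-sided, with Benjamini-Hochberg adjustment over all 19173 genes; a gene under 0.05 was called. The SE is the log2 change divided by the square root of F. The procedure was tested on simulated data. Log2 CPM for likeness used a prior count of 2 and genes with a mean CPM of at least 1. Genes with predicted-gene names (Gm with a number, or ending in Rik) were left out of it.

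Depth was 21040992 to 40835518 reads, and 3 reads set the floor. Alternatives were RLE scaling, DESeq2 1.42.0, other filters, a replicate block and leaving out each library.

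All members were named whatever their value, with up to 6 of the most changed relatives, up to 4 called genes per list, 7 genes fixed by name (Uhrf1, Cul2, Dnmt1, Stat3, Zscan4c, Duxf3 and Zfp352) and the 3 genes most like each member with a mean CPM of at least 1. Gm13128, Prame, Pramef12os and further near copies (Pramel1, BC080695, Gm13119, Gm13057 and Gm13102) were named after their values or sequences were seen. So were Lifr, Il6st and Jak1. The members and lists were chosen with earlier results of these data known.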

Additional observations from a re-analysis of the deposited data

How the results depend on the processing

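With 2 libraries a group, single libraries decided several calls. Leaving out each library in turn gave 2 to 5 members called for D3 versus D1 and 2 to 5 for D10 versus D8, against 4 and 6 with all libraries, 4 to 5 for D8 versus D3, and 0 for D8 versus D1, for D10 versus D3 and for the difference between responses. Where that leaves 1 library in a group, it is assumed to vary like the others. Requiring a mean CPM of at least 1 left 4 members tested, of which 3 were called for D10 versus D8. With no filter on low counts, 2 members were called for D8 versus D1 and 2 for D10 versus D3 (0 in both with the filter). DESeq2 called 1 for D8 versus D1. The cause was not tested in the last 3. Of 592 values of single members under an alternative, 540 stayed on their side of the threshold, 30 lost a call, 22 gained one and 0 reversed a called direction; 26 uncalled values changed sign.

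Replicate numbers are shared by all groups, but no label ties them to a culture or day, and with 2 per group the deviations of same-numbered libraries (correlations of 0.101 to 0.498 between groups) do not establish a pairing. With the replicate block, 5 members were called for D3 versus D1, 6 for D10 versus D8, 5 for D8 versus D3, 1 for D8 versus D1 (0 without it) and 0 for D10 versus D3 and for the difference between responses. The members gained were Pramef12 for D3 versus D1 (-0.99, adjusted p = 0.011) and D8 versus D3 (0.97, 0.0075) and Pramef25 for D8 versus D1 (0.035). Depth limits Pramef6 at D8 and Pramel5, Pramel6, Pramel7, Pramef17 and Pramef20, where 3 reads were worth 0.0713 to 0.143 CPM.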
